A study of Mus musculus with 6 samples.

Results

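The 3 inhibitor of DNA binding genes and 6 further genes of the TGF-beta and BMP response were followed in GC-1 spg cells, an immortalised mouse line derived from spermatogonia. The 9 genes, Id1, Id2, Id3, Smad6, Smad7, Smad9, Bambi, Bmp4 and Tgfbi, were taken by symbol from a table of 57180 gene rows, and each symbol matched 1 row. Of the 9, 8 passed the filter on low counts. The exception was Bmp4.

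The 2 groups were GC-1 spg cells transfected for SNHG1 overexpression and GC-1 spg cells carrying the vector control, each with 3 libraries taken at 24 hours. Snhg1 is a small nucleolar RNA host gene, and the series title links it to IL-17A signalling in non-obstructive azoospermia. All 6 libraries, controls included, also bear "Non-obstructive azoospermia" as their treatment, although the cells are a mouse line and no source used here describes such a treatment. Both groups were kept in medium with fetal bovine serum. No source used here gives the sequence of the overexpression construct. Whether the replicates were separate cultures is not stated either, so the p-values speak only of variation among these 6 libraries, part of which may be technical.

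TGF-beta and BMP ligands bind pairs of serine/threonine kinase receptors, which phosphorylate receptor SMADs. These join Smad4 and enter the nucleus. Id1, Id2 and Id3 are classic BMP target genes. Their products have a helix-loop-helix but no DNA-binding region, and they hold E proteins away from DNA. In the testis, BMP4 acts on spermatogonia, and the related ID4 marks spermatogonial stem cells. Smad6, Smad7 and Bambi encode feedback inhibitors of the pathway.

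Library totals ran from 15521900 to 21095427 counts. Snhg1 itself, the check on the labels, counted 467, 555 and 487 under SNHG1 overexpression against 464, 402 and 385 under vector, with a log2 fold change of 0.14 ± 0.10 (SE, n = 3 per group) and an edgeR adjusted p of 0.52. The groups overlapped for the gene that was to be raised, so every direction below is that of the labels. On principal component 2, which held 19.3% of the variance, SNHG1 overexpression replicate 1 scored 27.9 whereas replicates 2 and 3 scored -10.3 and -13.3. The vector libraries spread as well, at -4.25, -17.8 and 17.7. The germ cell label was not matched by germ cell genes: of 15 listed markers, 7, among them Ddx4, Kit, Zbtb16 and Id4, had 0 counts in all libraries, and Gfra1 alone passed the filter on low counts, at 2.42 ± 0.298 against 1.92 ± 0.426 CPM (SD, n = 3). CPM denotes counts per 1000000 counts in the library, with a further scaling by TMM factors, which correct for library composition. Of 14605 genes tested over the whole table, the quasi-likelihood test of edgeR called 350, or 2.4%, at an adjusted p under 0.05.

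Id2 was the single member called, and its promoter is shown beside that of Id3, its most abundant paralog. Both are the 250 bases upstream of the RefSeq transcription start on GRCm38.p6, written 5′ to 3′ in the direction of transcription. The Id2 window is chr12:25096093-25096342 on the minus strand and the Id3 window is chr4:136143572-136143821 on the plus strand. Capitals mark GGCGCC, the GC-rich element bound by BMP-activated SMADs, and GTCTG or its reverse complement CAGAC, a SMAD-binding sequence. Neither motif overlaps the other.
Id2: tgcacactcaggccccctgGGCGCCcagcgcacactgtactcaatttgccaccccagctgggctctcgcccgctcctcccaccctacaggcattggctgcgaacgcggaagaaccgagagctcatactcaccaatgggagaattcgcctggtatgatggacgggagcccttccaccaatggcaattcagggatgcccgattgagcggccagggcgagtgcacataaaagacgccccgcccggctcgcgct
Id3: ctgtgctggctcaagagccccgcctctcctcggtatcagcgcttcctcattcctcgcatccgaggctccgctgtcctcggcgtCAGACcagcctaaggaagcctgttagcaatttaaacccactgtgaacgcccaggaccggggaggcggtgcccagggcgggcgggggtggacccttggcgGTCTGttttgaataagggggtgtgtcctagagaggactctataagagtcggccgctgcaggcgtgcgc
The Id2 window held 1 GGCGCC, starting 231 bases upstream of the start site, and no GTCTG. The Id3 window held no GGCGCC and 2 copies of GTCTG, 1 on each strand, starting 167 and 68 bases upstream. Of 32817 promoter windows of this length, searched on both strands, 9.59% held GGCGCC and 42.2% held GTCTG. The matches describe the letters of these windows and not sites in use.

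Among the ID genes, Id2 fell and the other two did not pass the test. Id2 (ENSMUSG00000020644) lies on chromosome 12 at 25143798 to 25147139, on the coordinates of the deposited table, whose build is not named. Its counts were 122, 157 and 150 in the SNHG1 overexpression libraries and 224, 179 and 265 in the vector libraries. On the CPM scale these were 6.27, 7.46 and 7.79 against 10.7, 11.6 and 14.4. All 3 SNHG1 overexpression libraries lay below all 3 vector libraries. Id2 was lower by a log2 fold change of -0.77 ± 0.15 (SE, n = 3 per group, 95% interval -1.11 to -0.42), which is 0.588 times the vector level, with an edgeR adjusted p of 0.0417. Only 158 of the 14605 tested genes had a lower log2 fold change. As this is bulk RNA, fewer cells with Id2 RNA and less Id2 RNA per cell cannot be told apart.

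The Id2 call stood close to the threshold. It was lost with any 1 library left out, at edgeR adjusted p of 0.0567, 0.12 and 0.0865 without SNHG1 overexpression replicates 1, 2 and 3 and of 0.0743, 0.11 and 0.126 without vector control replicates 1, 2 and 3. In those 6 fits the log2 fold change stayed between -0.86 and -0.63. The edgeR call was also lost with no low-count filter (adjusted p = 0.0602) and with the replicate number as a block (0.0514). DESeq2 gave an adjusted p of 0.00125 and limma-voom 0.0486.

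**Figure D1:**
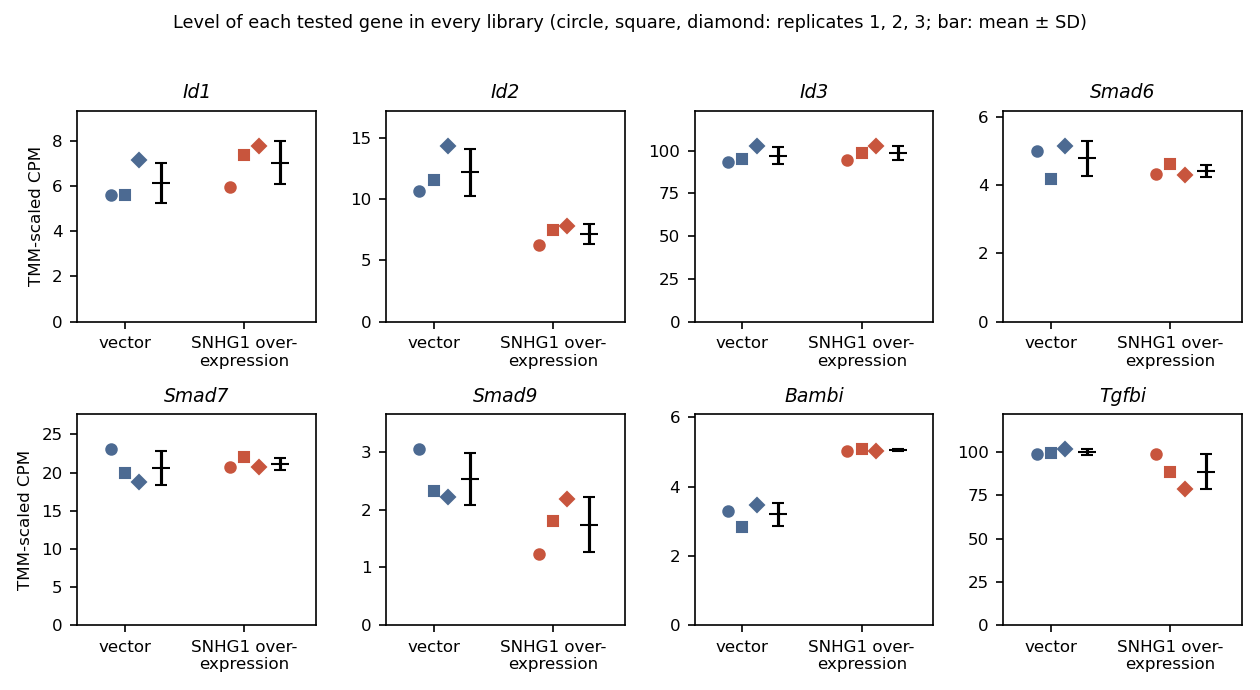
TMM-scaled CPM (vertical axes, from 0) of the 8 tested genes in the vector and SNHG1 overexpression libraries; circles, squares and diamonds are replicates 1, 2 and 3, and the bar is the mean ± SD (n = 3). The groups did not overlap for Id2, Smad9 and Bambi, and they overlapped for the other 5 genes.

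Id1 (ENSMUSG00000042745, chromosome 2, 152578171 to 152579330) is the ID gene whose promoter is widely used to report BMP signalling. It had 116, 155 and 150 counts in the SNHG1 overexpression libraries and 118, 87 and 132 in the vector libraries, or 7.04 ± 0.956 against 6.13 ± 0.893 CPM (SD, n = 3). The groups overlapped, with a log2 fold change of 0.20 ± 0.16 (SE, 95% interval -0.17 to 0.56; edgeR, adjusted p = 0.552).

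Id3 (ENSMUSG00000007872, chromosome 4, 135870808 to 135873066) had 1840, 2077 and 1982 counts against 1958, 1473 and 1895. The CPM values were 94.5, 98.7 and 103 in the SNHG1 overexpression libraries and 93.3, 95.1 and 103 in the vector libraries. The groups overlapped over nearly their whole range. Id3 had a log2 fold change of 0.02 ± 0.06 (SE, 95% interval -0.12 to 0.17; edgeR, adjusted p = 0.877), whose sign changed in 3 of 15 alternatives.

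Per kilobase of the longest GENCODE M21 transcript, Id3 made up most of the ID RNA. It took 85.7 to 87.7% of the 3-gene sum in the vector libraries and 88.3 to 89.9% in the SNHG1 overexpression libraries. The share of Id2 was 6.51, 6.89 and 7.77% in the vector libraries and 3.87, 4.34 and 4.34% in the SNHG1 overexpression libraries. The sum over the 3 genes was 87.4 ± 5.72 CPM per kilobase in the vector and 86.9 ± 4.45 in the SNHG1 overexpression libraries (SD, n = 3), a difference smaller than either SD.

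Within each library, Id2 had 1.9, 2.06 and 2.01 times the CPM of Id1 in the vector group and 1.05, 1.01 and 1 times in the SNHG1 overexpression group. The spread of this ratio within a group was small, 1.99 ± 0.0814 against 1.02 ± 0.0269 (SD, n = 3). The ratio rests on 87 to 155 counts of Id1 and 122 to 265 counts of Id2 per library. An SD over 3 libraries can fall below counting error, so it does not show how closely the ratio is held. The ratio of Id2 to Id3 also separated the groups, at 0.125 ± 0.0131 in the vector and 0.0725 ± 0.00539 in the SNHG1 overexpression libraries. The ratio of Id1 to Id3 did not, at 0.063 ± 0.0058 and 0.0711 ± 0.00701. An exact two-sided permutation test over the 20 splits of 6 libraries gave p = 0.1 for both ratios with Id2 and p = 0.2 for Id1 to Id3. With 3 libraries a side, 0.1 is the smallest p this test can give, and over the 5 quantities tested the adjusted values were 0.167, 0.167 and 0.25. For the other 2 quantities the same exact test gave p = 0.9 (adjusted 0.9) for the ID sum per kilobase and p = 0.1 (adjusted 0.167) for the ratio of Smad7 to Smad6. The latter ratio was 4.8, 4.78 and 4.81 in the SNHG1 overexpression libraries and 4.61, 4.75 and 3.63 in the vector libraries. It reached the same smallest p although neither Smad7 nor Smad6 passed the edgeR test.

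**Figure D2:**
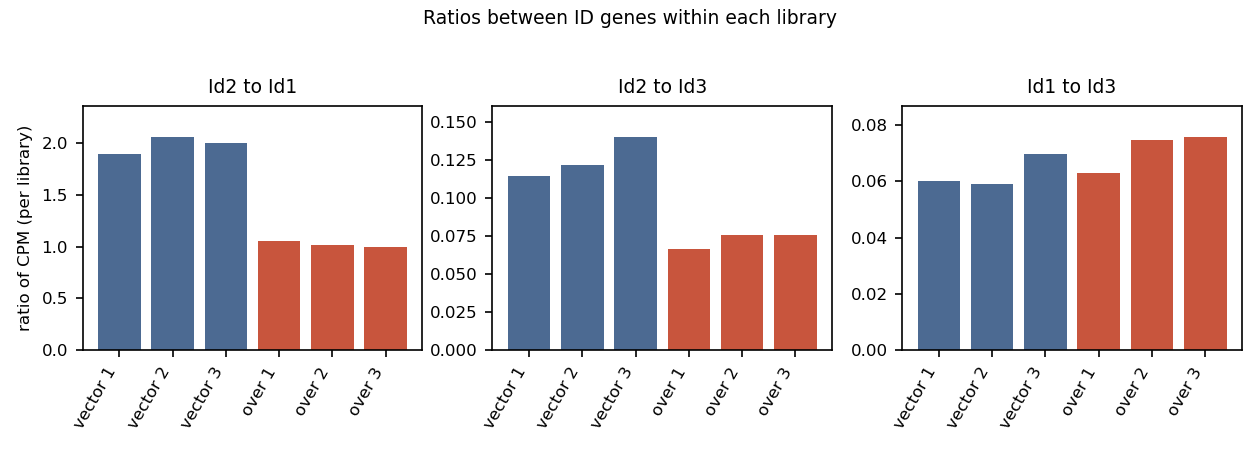
Ratios of CPM between ID genes in each library (vertical axes from 0), vector replicates 1 to 3 in blue and SNHG1 overexpression replicates 1 to 3 in red. The Id2 to Id1 ratio was 1.9 to 2.06 in the vector libraries and 1 to 1.05 in the SNHG1 overexpression libraries.

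No feedback inhibitor passed the test, and Bambi came nearest. Bambi, a pseudoreceptor that lacks a kinase domain and blunts TGF-beta, BMP and activin signals (ENSMUSG00000024232, chromosome 18), had 98, 107 and 97 counts in the SNHG1 overexpression libraries and 69, 44 and 64 in the vector libraries. This was 5.04, 5.08 and 5.03 CPM against 3.29, 2.84 and 3.47 CPM. The SNHG1 overexpression libraries lay above all vector libraries. They were nearly equal to each other, but with counts this low that closeness is no measure of precision. Bambi had a log2 fold change of 0.65 ± 0.14 (SE, n = 3 per group, 95% interval 0.34 to 0.97), or 1.57-fold, and its edgeR adjusted p of 0.0556 missed the threshold. Over 15 alternatives its adjusted p ran from 0.0397 to 0.189, and it passed in 1, with trends of GC content and transcript length removed (0.0397).

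Smad7, an inhibitory SMAD that blocks TGF-beta and BMP receptors (ENSMUSG00000025880, chromosome 18), had 403, 464 and 399 counts against 484, 309 and 345 in the vector libraries. The groups overlapped at 21.2 ± 0.769 and 20.6 ± 2.24 CPM (SD, n = 3). Smad7 had a log2 fold change of 0.04 ± 0.10 (SE, 95% interval -0.19 to 0.27; edgeR, adjusted p = 0.874). Smad6, the inhibitory SMAD that acts mainly on the BMP branch (ENSMUSG00000036867, chromosome 9, 63860358 to 63929341), had 84, 97 and 83 counts against 105, 65 and 95. It also overlapped, at 4.41 ± 0.171 and 4.78 ± 0.516 CPM (SD, n = 3), with a log2 fold change of -0.12 ± 0.14 (SE, 95% interval -0.44 to 0.20; edgeR, adjusted p = 0.69).

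Smad9, also called SMAD8, is a receptor SMAD of the BMP branch with weak activity (ENSMUSG00000027796, chromosome 3, 54663003 to 54708678). It was the least abundant of the tested members, with 24, 38 and 42 counts in the SNHG1 overexpression libraries and 64, 36 and 41 in the vector libraries. The CPM values were 1.23, 1.81 and 2.18 against 3.05, 2.32 and 2.23, so the groups were separated by the gap between 2.18 and 2.23. This difference, -0.55 ± 0.25 on the log2 scale (SE, 95% interval -1.13 to 0.03), did not pass (edgeR, adjusted p = 0.318). It was -0.36 without SNHG1 overexpression replicate 1, the lowest library, and -0.39 without vector control replicate 1, the highest (edgeR, adjusted p = 0.397 and 0.588).

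The ligand Bmp4 (ENSMUSG00000021835, chromosome 14, 46620977 to 46628126) was at or near 0 counts in every library. It had 0, 0 and 1 counts in the SNHG1 overexpression libraries and 0, 0 and 1 in the vector libraries, and was not tested. The limit that 0 counts allow, taken as 3 counts per library, was 0.143 to 0.194 CPM and covers counting error only. The deposited locus of Bmp4 overlaps 2 other rows, Gm15217 and Gm15222, both with 0 counts throughout. No row overlaps the loci of the other 8 members.

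Tgfbi, a secreted matrix protein named for its induction by TGF-beta (ENSMUSG00000035493, chromosome 13, 56757336 to 56787375), had 1924, 1857 and 1513 counts against 2074, 1544 and 1873. The CPM values were 98.9, 88.2 and 78.5 in the SNHG1 overexpression libraries and 98.8, 99.6 and 102 in the vector libraries. SNHG1 overexpression replicate 1 was at the vector level, and the other two were lower. For Tgfbi the log2 fold change was -0.18 ± 0.08 (SE, 95% interval -0.37 to 0.02; edgeR, adjusted p = 0.329), and it moved to -0.26 without SNHG1 overexpression replicate 1 and to -0.10 without replicate 3 (edgeR, adjusted p = 0.0736 and 0.626).

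**Figure D3:**
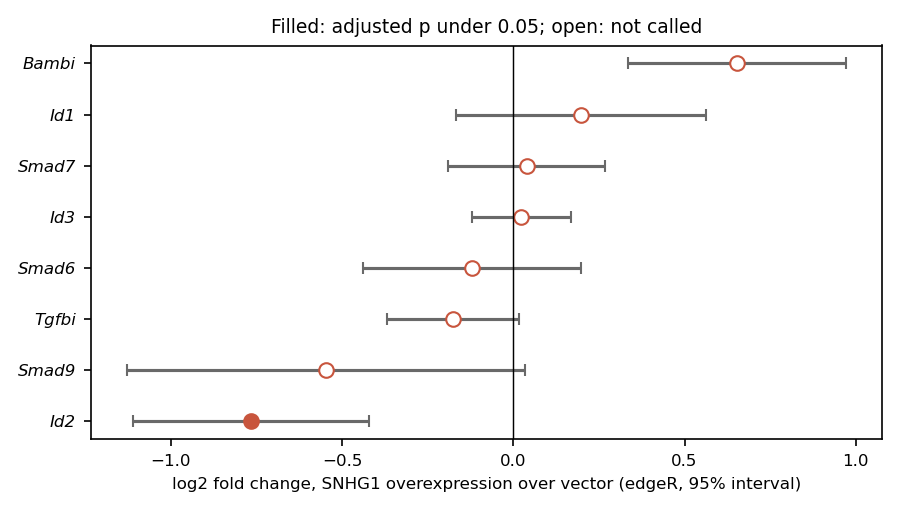
Log2 fold change of SNHG1 overexpression over vector (horizontal axis) with its 95% interval from edgeR for the 8 tested genes (rows); the filled point has an adjusted p under 0.05. The values run from -0.77 for Id2 to 0.65 for Bambi, and the intervals of these 2 genes leave out 0.

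Over the members, edgeR called 0 higher and 1 lower of 8 tested, where 1.54% of all tested genes were called higher and 0.856% lower. The groups did not overlap for 3 members, Id2, Smad9 and Bambi, beside 23.7% of all tested genes. Unadjusted p values under 0.05 were found for 2 members, Id2 and Bambi, beside 17% of all tested genes. The median log2 fold change of the members was -0.05 and that of all tested genes 0.01.

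On the scale of CPM per kilobase, the vector libraries ordered the members as Id3 at 76 ± 3.98, Tgfbi at 33.3 ± 0.488, Id2 at 6.2 ± 0.985, Id1 at 5.29 ± 0.77, Smad7 at 4.81 ± 0.523, Smad6 at 1.61 ± 0.174, Bambi at 0.631 ± 0.0642, Smad9 at 0.472 ± 0.0838 and Bmp4 at 0.00877 ± 0.0152 (SD, n = 3). The ranges of Id2 and Id1, of Id1 and Smad7, and of Bambi and Smad9 overlapped between libraries. Within every vector library, however, Id2 lay above Id1 and Bambi above Smad9 on this scale. The Id1 transcript length used, 1160 bp, equals the genomic span of the gene, so the order of Id2 and Id1 depends on the length taken. By the deposited FPKM, Id1 lay above Id2 in vector replicate 1, at 2.67 against 2.57. The order of Id1 and Smad7 changed from library to library. In the SNHG1 overexpression libraries Id2 stood at 3.64 ± 0.406, below Id1 at 6.07 ± 0.824 and Smad7 at 4.94 ± 0.18, with no overlap with either. The deposited FPKM values were not used for this order, because the gene lengths they imply, 2094 bp for Id1 and 4133 bp for Id2, exceed the genomic spans of 1160 and 3342 bp.

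The rest of the pathway was read from 8 lists holding 95 other genes, of which 62 were tested, and edgeR called 1 higher and 3 lower, beside 1.54% higher and 0.856% lower among all tested genes. Unadjusted p values under 0.05 were found for 12 of the 62, beside 17% of all tested genes. The median log2 fold change of the 62 was -0.01. The 4 genes were Ltbp2, Thbs1, Ccn2 and Fn1, all of them extracellular proteins.

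Ligand genes other than Bmp4 had few or no counts in most cases. Of 25 listed, 11 had 0 counts in all libraries, Bmp2 and Bmp7 among them, and 10 were tested, of which none was called by edgeR and 0 had an unadjusted p under 0.05. Tgfb1, the main TGF-beta isoform, stood at 47.9 ± 3.91 against 44 ± 2.17 CPM, Gdf11 at 40.3 ± 2.94 against 40 ± 0.65 CPM and Gdf5 at 37.3 ± 3.12 against 31.3 ± 4.12 CPM in the SNHG1 overexpression and vector libraries (SD, n = 3). The corresponding log2 fold changes were 0.12, 0.01 and 0.25 (edgeR, adjusted p = 0.469, 0.97 and 0.302).

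Receptor genes were present for both branches. Of 14 listed, 10 were tested and 0 called by edgeR, with 2 at an unadjusted p under 0.05. The co-receptor betaglycan, Tgfbr3, stood at 539 ± 28.6 against 454 ± 7.63 CPM (SD, n = 3) and did not pass (log2 fold change 0.25 ± 0.06 (SE); edgeR, adjusted p = 0.0645). DESeq2 called it (adjusted p = 0.0183), and the 15 alternatives spanned 0.0123 to 0.217. The type II TGF-beta receptor Tgfbr2 was at 195 ± 16 against 206 ± 13.5 CPM and the BMP receptor Bmpr1a at 149 ± 19 against 168 ± 2.75 CPM (SD, n = 3; edgeR, adjusted p = 0.628 and 0.351). Bmpr1a passed in 1 alternative, without SNHG1 overexpression replicate 1 (log2 fold change -0.29, adjusted p = 0.027).

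All 5 receptor and common SMAD genes were tested and 0 were called by edgeR, with 1, Smad3, at an unadjusted p under 0.05. Smad3, a receptor SMAD of the TGF-beta branch, was at 217 ± 21.9 against 183 ± 7.97 CPM, and the shared partner Smad4 at 160 ± 6.38 against 163 ± 2.6 CPM (SD, n = 3; edgeR, adjusted p = 0.177 and 0.864). Smad5, a receptor SMAD of the BMP branch, had 805, 2089 and 1910 counts in the SNHG1 overexpression libraries and 2283, 1812 and 1725 in the vector libraries. Only SNHG1 overexpression replicate 1 was low. The log2 fold change of -0.41 ± 0.29 (SE; edgeR, adjusted p = 0.504) became -0.10 without that library.

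Among 16 extracellular regulators, 9 were tested, and edgeR called Ltbp2 alone, as higher. Unadjusted p values under 0.05 were found for 3 of the 9, beside 17% of all tested genes. Ltbp2 encodes a protein of the latent TGF-beta binding family that sits on elastic fibres (ENSMUSG00000002020). It had 108, 136 and 122 counts in the SNHG1 overexpression libraries against 60, 37 and 57 in the vector libraries. The groups lay apart, at 6.11 ± 0.493 and 2.78 ± 0.359 CPM (SD, n = 3). Ltbp2 rose by 1.13 ± 0.15 on the log2 scale (SE), or 2.19-fold, with an edgeR adjusted p of 0.01, and the call was lost only without vector control replicate 1 (adjusted p = 0.0559) among 15 alternatives. Intracellular regulators, all 12 of them tested, had 0 calls by edgeR and 0 unadjusted p values under 0.05. The repressor Ski was at 170 ± 61.5 against 218 ± 8.09 CPM, the ubiquitin ligase Smurf2 at 137 ± 3.61 against 142 ± 1.81 CPM and the phosphatase Ppm1a at 131 ± 23.5 against 124 ± 17.2 CPM (SD, n = 3).

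Among known TGF-beta targets, Thbs1, Ccn2 and Fn1 fell. Of 12 listed, 10 were tested and edgeR called 3 lower and 0 higher, beside 0.856% and 1.54% of all tested genes, with a median log2 fold change of -0.20. Unadjusted p values under 0.05 were found for 6 of the 10 and groups without overlap for 7, beside 17% and 23.7% of all tested genes. Both counts include genes that were higher under SNHG1 overexpression, so neither is a count of genes that fell. The list was chosen with earlier results of these data known. Thbs1, which encodes thrombospondin 1, an activator of latent TGF-beta, had 84, 76 and 69 counts against 248, 119 and 154, and fell by 1.28 ± 0.19 on the log2 scale (SE; edgeR, adjusted p = 0.0154). Ccn2, connective tissue growth factor, had 114, 134 and 108 counts against 197, 137 and 160, and fell by 0.59 ± 0.11 (SE; edgeR, adjusted p = 0.0368). Fibronectin, Fn1, fell from 5664 ± 149 to 4409 ± 202 CPM (SD, n = 3; edgeR, adjusted p = 0.00996).

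These 3 calls were not equally firm. That of Thbs1 was lost without SNHG1 overexpression replicates 2 and 3 (edgeR, adjusted p = 0.0661 and 0.0595), and that of Fn1 without SNHG1 overexpression replicate 2 and vector control replicates 1 and 3 (0.0541, 0.0518 and 0.057). The call of Ccn2 was lost without any library except SNHG1 overexpression replicate 1, at 0.0864 to 0.14, and also with no low-count filter (0.0677). The AP-1 subunit Junb, named after its values were seen, lay the other way but did not pass, at 305 ± 16.5 against 221 ± 29.8 CPM (SD, n = 3; edgeR, adjusted p = 0.0545). DESeq2 called it (adjusted p = 0.000417).

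BMP targets other than the members were few in these cells. Of 8 listed, 4, namely Id4, Hey1, Msx1 and Msx2, had 0 counts in all libraries, and 3 were tested with 0 called by edgeR and 0 at an unadjusted p under 0.05. Runx2 had a log2 fold change of 0.02 ± 0.09, Atoh8 of -0.08 ± 0.08 and Gata2 of 0.09 ± 0.15 (SE, n = 3 per group; edgeR, adjusted p = 0.924, 0.652 and 0.783). The 3 E protein genes, whose products ID proteins bind, also had 0 calls and 0 unadjusted p values under 0.05. Tcf3 was at 148 ± 15.1 against 140 ± 14 CPM, Tcf4 at 51.6 ± 3.79 against 56.5 ± 1.35 CPM and Tcf12 at 195 ± 34.8 against 227 ± 31.2 CPM (SD, n = 3).

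**Figure D4:**
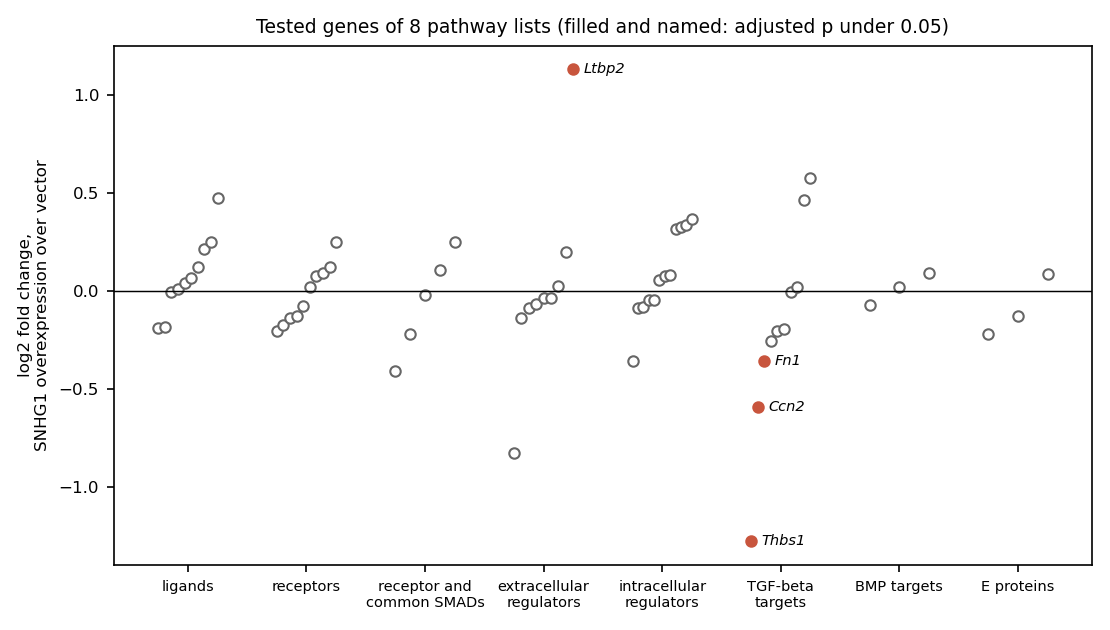
Log2 fold change of SNHG1 overexpression over vector (vertical axis) for the 62 tested genes of 8 pathway lists (columns); each point is a gene, and filled, named points have an edgeR adjusted p under 0.05. Ltbp2 is the single filled point above 0, and Thbs1, Ccn2 and Fn1 are the 3 below.

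Genes with a profile like that of Id2 over the 6 libraries were sought among 8235 other genes of at least 20 CPM. Likeness was the root mean square difference of log2 CPM after each profile was centred on its vector mean. The 5 nearest were Adamts5 at 0.19, Lgr4 at 0.19, Ap3s1 at 0.20, Tmem158 at 0.20 and Zfp267 at 0.20 log2 units. Lgr4, an R-spondin receptor, stood at 85.8 ± 2.37 against 135 ± 5.67 CPM, and the matrix protease Adamts5 at 32.6 ± 2.96 against 49 ± 1.73 CPM (SD, n = 3). Adamts5, Lgr4 and Tmem158 were called lower by edgeR (adjusted p = 0.0112, 0.000966 and 0.0181), whereas Ap3s1 and Zfp267 were not (0.163 and 0.076). The measure picks genes that fall with Id2, so their direction is no separate result.

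Marker lists of other cell types were measured beside these results. The summed CPM of 11 peritubular and fibroblast markers, most of it collagen, was 18335 to 19197 in the SNHG1 overexpression and 21817 to 23216 in the vector libraries. Like Id2, the sum was lower in the SNHG1 overexpression group, but it did not follow Id2 from library to library. Over SNHG1 overexpression replicates 1, 2 and 3, Col1a2 ran 13275, 13169 and 13081 CPM, whereas Id2 ran 6.27, 7.46 and 7.79 CPM. Of these 11, 7 were tested, 2 were called lower and 1, Pdgfra, higher, and Lum was at 0. Sums of 8 macrophage markers were 21.7 to 23.9 against 21.4 to 22.8 CPM, with Lyz2 the largest and Adgre1 and Ptprc under 1 CPM, and 6 endothelial markers summed to 1.28 to 1.87 against 1.55 to 1.85 CPM. Sertoli markers, 9 genes led by Rhox5, summed to 612 to 709 against 587 to 621 CPM. Of these 9, 5 passed the filter on low counts, whereas Wt1 and Fshr were at 0. The 7 Leydig markers, with Cyp11a1 and Cyp17a1 at 0, summed to 2.47 to 3.06 against 2.43 to 2.88 CPM. The part of these differences in the Id2 result was not tested.

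**Figure D5:**
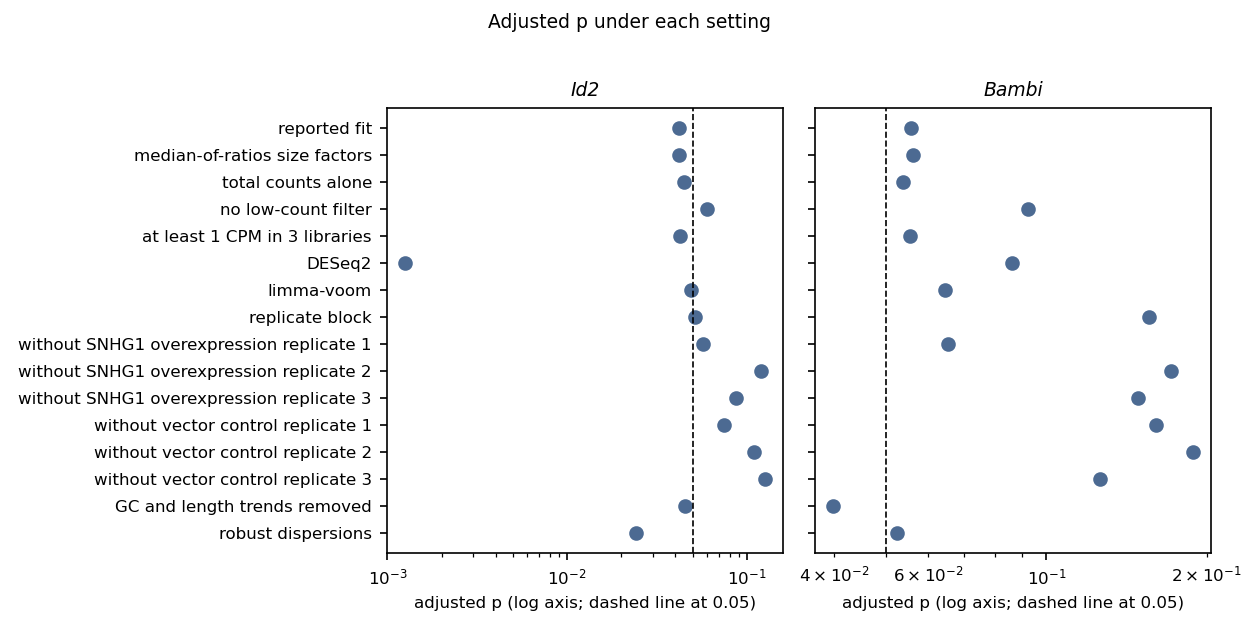
Adjusted p (horizontal log axes, dashed line at 0.05) of Id2 and Bambi under the reported fit and 15 alternatives (rows). Id2 lies below 0.05 in 7 of the 15 alternatives and Bambi in 1.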

How the data were processed

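The authors deposited 1 table with whole-number counts and FPKM values per gene for each of 6 libraries of poly(A)-selected, stranded RNA. The submitters' processing notes list StringTie, HISAT2 and SAMtools 1.3.1 and give the human build GRCh38, although every identifier is a mouse Ensembl one. How reads were counted, and on which strand, is not given in the sources. Samples were grouped by their titles.

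Counts were fitted over all genes with the quasi-likelihood test of edgeR 4.0.16 in R 4.3.3, with TMM factors (0.996 to 1.005), filterByExpr at its defaults, a group term alone and a Benjamini-Hochberg threshold of 0.05. Library sizes were those of the 14605 tested genes. The script was tested on simulated counts. There it called, in the right direction, 75% of 100 genes changed 2-fold and 47% of 100 genes changed 1.5-fold. It also called 24 of 14405 unchanged genes. These false calls were a larger share of all its calls than the threshold of 0.05 is meant to allow. A called gene may therefore be a false call, and a gene that did not pass may still differ. Alternatives used DESeq2 1.42.0 and limma 3.58.1. The deposited FPKM values served only to derive implied gene lengths and to compare the order of Id2 and Id1. Promoters are RefSeq windows on GRCm38.p6. Windows on chromosome 18, where Smad7 and Bambi lie, were left out. Id1 had no window in the set used, so 6 of 9 members were used. Members and lists were chosen with earlier results of these data known.

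All members, genes of each list called by edgeR (otherwise its 3 most abundant tested genes), germ cell markers and the 5 profiles nearest to a called member are named, by rule. Total counts limit precision: 1 count is 0.0475 to 0.0645 CPM. One listed gene is not reported here by name.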

Additional observations from a re-analysis of the deposited data

How the results depend on the processing

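Against 350 genes called over the whole table, DESeq2 called 648, the fit with the replicate number as a block 163, and fits without 1 library 123 to 807 (123 without vector control replicate 1, 807 without SNHG1 overexpression replicate 1). Against 1 member called, 0 were called with no low-count filter (Id2, adjusted p = 0.0602), 0 with the replicate block (Id2, adjusted p = 0.0514), 0 in each of the 6 fits without 1 library, and 2 with GC and length trends removed, where Bambi joined Id2. Against 4 pathway list genes called, DESeq2 called 7 and fits without 1 library 1 to 7. The causes were not tested. Trend removal and robust dispersions were chosen after seeing the data. The deviations of same-numbered libraries from their group means correlated across 8235 genes at 0.0299, -0.152 and -0.0626. Of the vector libraries, only vector control replicate 1 correlated best with its own number. With 3 libraries per group, such correlations cannot decide whether replicate numbers pair the samples. Ccn2 also lost its call with the block (adjusted p = 0.115). Snhg1 was not called in any of the 15 alternatives, with log2 fold changes of 0.07 to 0.22. Id1, Id2, Smad6, Smad9, Bambi and Tgfbi kept their sign in all 15, and Smad7 changed sign in 2. Depth left Bmp4, with 0 or 1 counts per library, untested, and Smad9, Smad6 and Bambi rest on 24 to 107 counts per library.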

Other observations

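Beside Smad5, a single library also set the value of Ski, a repressor of SMAD-dependent transcription. Ski had 4227, 2117 and 3709 counts in the SNHG1 overexpression libraries and 4635, 3234 and 4128 in the vector libraries, so SNHG1 overexpression replicate 2 alone was low, at 101 CPM against 193 to 224 CPM elsewhere. The log2 fold change was -0.36 with all libraries and -0.09 without that one, and neither passed (edgeR, adjusted p = 0.486 and 0.694).

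Chrdl1, a secreted BMP antagonist, had few counts, 13, 11 and 10 in the SNHG1 overexpression libraries against 25, 17 and 14 in the vector libraries, and did not pass (log2 fold change -0.83 ± 0.30 (SE); edgeR, adjusted p = 0.216). The anti-Müllerian hormone receptor gene Amhr2 had 2, 7 and 4 counts against 14, 6 and 13 and fell short of the low-count filter. Both were named after their values were seen.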
